A study of Mus musculus with 2 samples.

Results

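The 10 genes described here make and load major histocompatibility complex (MHC) class I molecules, and were taken by their exact gene names from the 34745 rows of the deposited count tables, where each had 1 row. They are the heavy chain genes H2-K1, H2-D1, H2-Q6 and H2-T23, the light chain gene B2m, the peptide transport and loading genes Tap1, Tap2, Tapbp and Erap1, and the regulator Nlrc5. RNA came from regulatory T (Treg) cells, CD4 T cells that express Foxp3, sorted by a yellow fluorescent reporter from spleens of C57BL/6 mice aged 2 weeks. The wild-type library came from poh1+/+ Foxp3Cre+ mice and the knockout library from poh1fl/fl Foxp3Cre+ mice, so both groups carried the Cre allele, which is active where Foxp3 is expressed. There was 1 library per genotype, and the sources used here do not say whether mice were pooled in it. No difference therefore has a replicate check, no p-value is given, and the range after each fold is a 95% counting interval that covers counting error only.

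A class I molecule is a heavy chain paired with beta-2 microglobulin and a short peptide, displayed at the cell surface to CD8 T cells and natural killer cells. The proteasome cuts the peptides in the cytosol, the TAP1 and TAP2 transporter carries them into the endoplasmic reticulum, ERAP1 trims them there, and tapasin, the product of Tapbp, holds the transporter beside empty heavy chains until a fitting peptide is bound. NLRC5 is the transactivator that drives class I genes, and interferons raise the expression of most of this machinery in many cell types. POH1, which the mouse gene Psmd14 encodes, is itself a proteasome subunit that strips ubiquitin from substrates.

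The H2 genes are near copies, and the letters they share limit how far a single H2 row can be read. The following coding stretches, read 5′ to 3′ from the GENCODE M21 transcripts (mm10), are shown because a read that lies inside one of them matches several genes. The first stretch is identical in H2-Q6 and H2-D1 over 130 bases, and its capitals mark the 91 bases that H2-K1 also holds. The second is identical in H2-Q6 and H2-Q7 over 265 bases, with capitals for the 130 bases also in H2-D1. The third is identical in H2-T23 and H2-D1 over 145 bases, with capitals for the 87 bases also in H2-Q6.
H2-Q6 with H2-D1: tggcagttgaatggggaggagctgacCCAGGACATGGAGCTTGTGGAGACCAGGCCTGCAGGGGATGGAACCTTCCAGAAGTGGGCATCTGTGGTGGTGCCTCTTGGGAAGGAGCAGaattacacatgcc
H2-Q6 with H2-Q7: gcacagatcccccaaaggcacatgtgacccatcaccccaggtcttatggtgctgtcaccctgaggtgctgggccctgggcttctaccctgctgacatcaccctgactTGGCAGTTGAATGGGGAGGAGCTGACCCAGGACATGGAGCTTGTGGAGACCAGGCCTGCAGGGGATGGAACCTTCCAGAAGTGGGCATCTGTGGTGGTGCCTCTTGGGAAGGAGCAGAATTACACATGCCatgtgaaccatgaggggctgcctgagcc
H2-T23 with H2-D1: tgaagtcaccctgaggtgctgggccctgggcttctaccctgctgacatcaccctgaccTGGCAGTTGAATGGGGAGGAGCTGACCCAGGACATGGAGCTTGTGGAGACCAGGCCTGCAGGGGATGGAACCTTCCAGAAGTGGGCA
The first stretch lies in exon 4 of the 6 exons of H2-Q6 (chr17:35427965-35428094, plus strand), and the second reaches from exon 3 into exon 4 of that gene. The third lies in exon 4 of the 7 exons of H2-T23 (chr17:36030910-36031054, minus strand). Exon 4 encodes the alpha 3 domain, the part of the heavy chain nearest the membrane that contacts beta-2 microglobulin and CD8.

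Over the whole transcript with the longest coding part, 35.0% of all 50-base stretches of H2-Q6 occurred in transcripts of another gene, on either strand. The share was 29.8% for H2-T23, 14.3% for H2-D1 and 8.79% for H2-K1. For 100-base stretches it was 13.0% for H2-Q6, 7.28% for H2-T23, 4.64% for H2-D1 and 0% for H2-K1. B2m and Nlrc5 shared 0% at both lengths. The sources used here give neither the read length nor how the authors treated reads with several matches. H2-K1 is thus the H2 member whose letters set it apart best, and H2-Q6 the one whose counts are most open to exchange with its neighbours.

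Of the 10 genes, 7 lie on chromosome 17 in and around the H2 complex (mm10, GENCODE M21). In order along the chromosome these are Tapbp (33915899 to 33929292), H2-K1 (33996017 to 34000347), Tap1 (34187553 to 34197225), Tap2 (34203527 to 34216321), H2-D1 (35262730 to 35267499), H2-Q6 (35424850 to 35430055) and H2-T23 (36029773 to 36032855). H2-K1 and H2-T23 are read from the minus strand and the other 5 from the plus strand. B2m is on chromosome 2 (122147686 to 122153083), Nlrc5 on chromosome 8 (94434356 to 94527272) and Erap1 on chromosome 13 (74639568 to 74693201), all on the plus strand. Exons of another gene cover 29.0% of the exon length of Tapbp (Zbtb22 and Gm19412), 18.5% of Tap2 (Gm15821 and Gm20496), 11.5% of Erap1 (Cast), 3.87% of Tap1 (Psmb9) and 0.918% of Nlrc5 (9330175E14Rik). The library kit does not mark strand, so reads in those parts cannot be assigned to one gene by their letters.

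The libraries held 18124611 (wild-type) and 14544212 (knockout) counts. Psmd14, the targeted gene, had 1619 and 463 counts, or 89.4 and 31.8 counts per 1000000 counts (CPM, scaled by TMM factors), which is 2.81-fold less in the knockout library (2.53 to 3.12). The Treg markers Foxp3, Il2ra, Ctla4, Ikzf2 and Tnfrsf18 were all abundant, summing to 3745 and 3969 CPM, with Foxp3 and Il2ra higher and Ctla4 and Ikzf2 lower in the knockout library, and 5 CD4 T cell markers summed to 2543 and 2145 CPM. Markers of other spleen cells were present and differed. All 7 B cell markers were lower in the knockout library (1001 and 250 CPM in sum), as were all 7 erythroid markers (90.5 and 22.6 CPM) and 4 of 7 dendritic cell markers (73.8 and 65.0 CPM, with Xcr1 and Clec9a at 0 counts in the knockout library). Both CD8 markers were higher there (18.8 and 47.4 CPM), as was 1 of 7 monocyte and macrophage markers, Csf1r (list sums 235 and 306 CPM). Neutrophil markers summed to 11.7 and 3.92 CPM, with 2 of 3 measured markers lower. Natural killer cell markers summed to 19.98 and 22.96 CPM, with 1 of 3 measured markers, Eomes, higher. Stromal and endothelial markers summed to 176 and 189.8 CPM, a sum carried by Pecam1, while the other 3 of 4 measured markers (Col1a1, Col1a2 and Cdh5) were lower. B cells and myeloid cells also express class I genes, and the part of such cells in the results below was not tested. In bulk RNA, fewer cells of a type and less RNA per cell cannot be told apart.

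Of the 10 genes, 9 were at a higher level in the knockout than in the wild-type library, and 1, H2-Q6, was at a lower level. A rule took the place of a test, by which a gene passed as higher or lower if its whole counting interval lay beyond 1.5-fold. By that rule 7 of the 10 were higher and 0 lower, against 9.58% higher and 12.3% lower among all 13464 genes that reached 1 CPM in either library. All 10 genes were above 100 CPM, and among the 2900 genes that reached that level in either library 11.4% were higher and 9.59% lower. The median log2 ratio of the 10 was 0.92, a 1.90-fold higher level, where that of all 13464 genes was -0.01 and that of the 2900 was 0.04. The intervals of 4 of the 10, H2-T23, Tap1, Tap2 and Nlrc5, lay wholly above 2-fold higher, which 4.34% of all measured genes did. Intervals wholly beyond 2-fold lower were found for 6.63% of all measured genes. Together the 10 genes took 0.852% of all wild-type counts and 1.39% of all knockout counts.

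**Figure D1:**
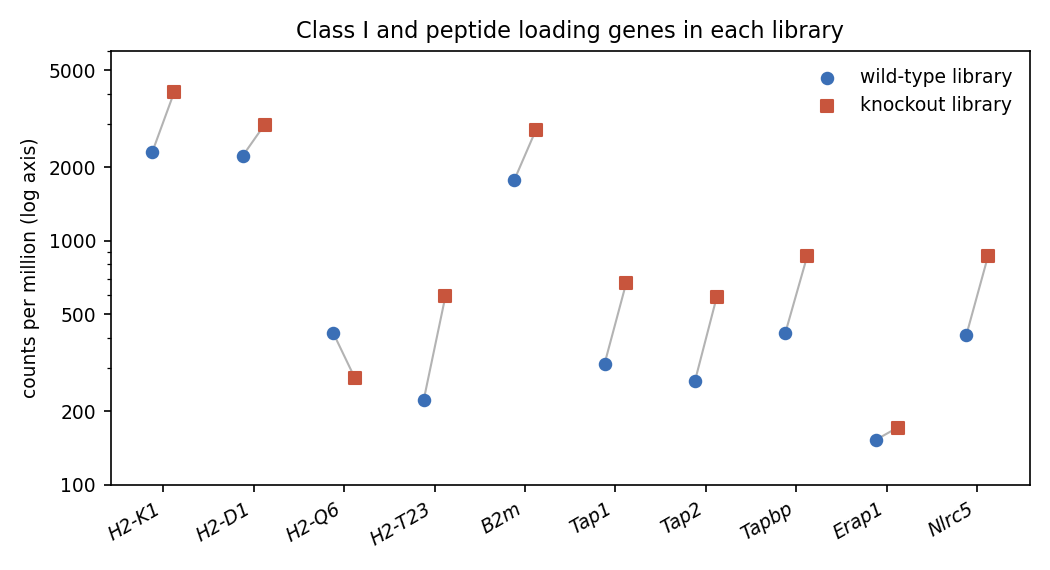
Level of each of the 10 genes in CPM (log axis), with the wild-type library as blue circles and the knockout library as red squares, 1 library each, joined by a grey line. Each line climbs to the right except that of H2-Q6, which goes from 418 to 273 CPM.

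The classical heavy chains H2-K1 and H2-D1, which present peptides to CD8 T cells, were among the most abundant of the 10. H2-K1 had 41976 wild-type and 59021 knockout counts, or 2317 and 4057 CPM. The level was 1.75-fold higher in the knockout library (1.73 to 1.77), wholly beyond the 1.5-fold rule. H2-D1 had 40430 and 43474 counts, or 2231 and 2988 CPM, a 1.34-fold higher level (1.32 to 1.36) that stayed within the rule. These genes were thus near each other in CPM in the wild-type library and further apart in the knockout library. Summed, which makes an exchange of reads between them irrelevant, H2-K1 and H2-D1 were 1.55-fold higher (1.53 to 1.56).

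H2-T23 encodes the heavy chain of Qa-1, a non-classical molecule that shows leader peptides of other class I chains to the CD94 and NKG2A receptor. It had 4038 wild-type and 8615 knockout counts, or 223 and 592 CPM. At 2.66-fold higher (2.56 to 2.76) it had the largest ratio of the 10 genes, with 672 as its rank from the highest log2 ratio among 13464 measured genes. H2-Q6, a gene of the Qa-2 group of non-classical heavy chains, went the other way. It had 7579 and 3972 counts, or 418 and 273 CPM, a 1.53-fold lower level in the knockout library (1.47 to 1.59). The near end of its interval lies inside 1.5-fold, so it was not counted as lower, and it ranked 10929 of 13464 from the highest.

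**Figure D2:**
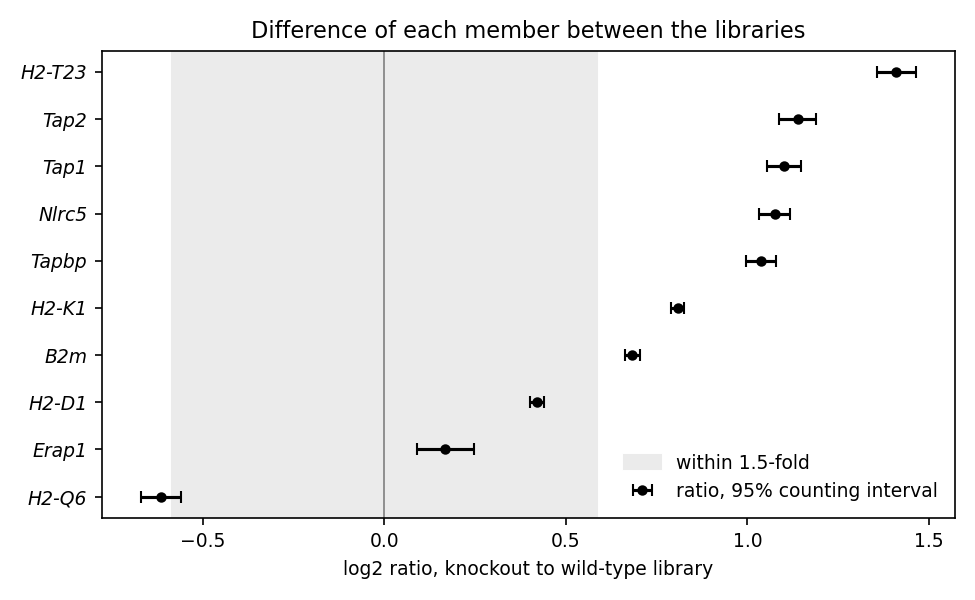
Log2 ratio of the knockout to the wild-type library for each of the 10 genes (points) with 95% counting intervals (bars), which cover counting error only; grey marks ratios within 1.5-fold. H2-T23, Tap2, Tap1, Nlrc5, Tapbp, H2-K1 and B2m lie wholly to the right of the grey band, H2-D1 and Erap1 inside it, and the interval of H2-Q6 crosses its left edge.

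The other H2 rows show how the H2-Q6 value sits among its near copies. Of 28 further class I heavy chain symbols, 4 of them Gm-named genes of the complex, 23 had a row, and 12 of those reached 1 CPM in either library. H2-L, H2-Q8, H2-Q9, H2-T9 and H2-T-ps were not analysed here. Not all of the 12 are plain coding genes, since GENCODE M21 labels H2-K2 a transcribed pseudogene and H2-Q5 and H2-T10 polymorphic pseudogenes. Of the 12, 7 were higher by the rule and 0 lower, against 9.58% and 12.3% of all measured genes, with a median log2 ratio of 1.19. H2-Q4, a neighbour of H2-Q6, had 15880 and 35757 counts and was 2.80-fold higher (2.75 to 2.86). H2-Q7, which shares the longest stretch with H2-Q6, had 11472 and 13690 counts and was 1.49-fold higher (1.45 to 1.52), at the edge of the rule. H2-Q5 was at 90.7 and 91.1 CPM, a ratio of 1.01 (0.934 to 1.08). H2-Q2 had 54 and 227 counts, a low level, and was 5.24-fold higher (3.88 to 7.18). The H2-Q rows thus ranged from lower to much higher. Summed over the 8 H2-Q rows, among them H2-Q3 with 0 and 3 counts, the level was 1.87-fold higher in the knockout library (1.84 to 1.89), with 36656 and 54993 counts.

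Among the T and M genes, H2-T22, H2-T10 and H2-T24 were 2.35-fold (2.26 to 2.44), 2.22-fold (2.09 to 2.37) and 2.45-fold higher (2.22 to 2.71), near the ratio of H2-T23. H2-M3, a heavy chain that binds peptides with a formylated start, went from 22.9 to 62.6 CPM and was 2.73-fold higher (2.43 to 3.08). H2-T22 and H2-T10 are near copies too, with 44.7% and 42.9% of their 50-base stretches found in another gene. Over the 23 H2-named class I rows of the members and the list, the counts summed to 129996 and 178838, a 1.71-fold higher level in the knockout library (1.70 to 1.73). The 4 H2 members alone, at 94023 and 115082 counts, were 1.52-fold higher (1.51 to 1.54).

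Within those H2 counts the make-up differed between the libraries. H2-K1 held 32.3% of them in the wild-type library (32.0% to 32.5%, exact Clopper-Pearson) and 33.0% in the knockout library (32.8% to 33.2%). The share of H2-D1 was smaller in the knockout library, 31.1% (30.8% to 31.4%) against 24.3% (24.1% to 24.5%). H2-Q4 took 12.2% (12.04% to 12.4%) and then 19.99% (19.8% to 20.2%). H2-Q6 took 5.83% (5.70% to 5.96%) and 2.22% (2.15% to 2.29%), and H2-T23 3.11% (3.01% to 3.20%) and 4.82% (4.72% to 4.92%). A lower share beside a higher level, as for H2-D1, says that the other H2 rows were higher by more in sum, not each of them.

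**Figure D3:**
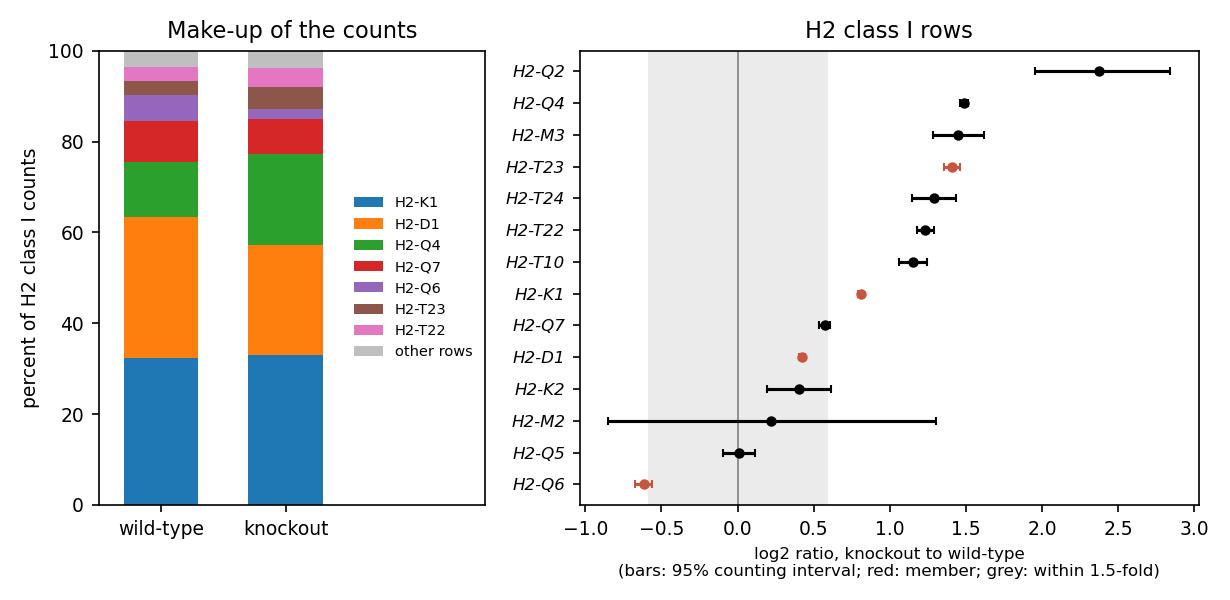
Left, percent of all H2 class I counts held by each of the 7 rows with most counts and by the other rows, in 1 library per genotype; right, log2 ratio of the knockout to the wild-type library for the H2 rows at 1 CPM or more, with 95% counting intervals, the members in red and ratios within 1.5-fold in grey. H2-Q4 grows from 12.2% to 19.99% of the counts while H2-Q6 goes from 5.83% to 2.22%, and H2-Q6 is the lowest row on the right.

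B2m, the light chain that every classical class I molecule needs, had 32021 wild-type and 41288 knockout counts, or 1767 and 2838 CPM. It was 1.61-fold higher in the knockout library (1.58 to 1.63), between H2-D1 and H2-K1 in its ratio. No 50-base stretch of its transcript occurs in another gene. The summed H2 rows and B2m thus had ratios of 1.71 and 1.61.

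The transport and loading genes Tap1, Tap2 and Tapbp had larger ratios than H2-K1, H2-D1 and B2m, with counting intervals that did not overlap theirs. Tap1, one arm of the peptide transporter, had 5679 and 9782 counts, or 313 and 672 CPM, and was 2.15-fold higher (2.08 to 2.22). Tap2, the other arm, had 4834 and 8542 counts, or 267 and 587 CPM, and was 2.20-fold higher (2.12 to 2.28). The intervals of Tap1 and Tap2 overlap. Tapbp, the tapasin gene, had 7618 and 12546 counts, or 420.4 and 862 CPM, and was 2.05-fold higher (1.99 to 2.11). Its relative Tapbpl, which encodes the peptide editor TAPBPR, had 1435 and 2024 counts and was 1.76-fold higher (1.64 to 1.88).

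Erap1, the aminopeptidase that trims peptides in the endoplasmic reticulum, differed little. It had 2768 wild-type and 2497 knockout counts, or 153 and 172 CPM, a ratio of 1.12 (1.06 to 1.19). It ranked 5146 of 13464 by log2 ratio, the rank nearest the middle of all genes among the 10. Its near relative Lnpep, an aminopeptidase of endosomes, was likewise at 210.5 and 232 CPM, a ratio of 1.10 (1.05 to 1.16).

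Nlrc5, the class I transactivator, had 7425 wild-type and 12557 knockout counts, or 410 and 863 CPM. It was 2.11-fold higher in the knockout library (2.05 to 2.17), a ratio within 0.1 on the log2 scale of those of Tap1, Tap2 and Tapbp, whose log2 ratios were 1.10, 1.14 and 1.04 beside 1.07. Its class II relative Ciita, which drives MHC class II genes, was low and had 173 and 114 counts, a ratio of 0.821 (0.642 to 1.05).

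The order of the members by level depends on the gene length used. The deposited FPKM values divide by a length that matched, within 1%, the sum of all distinct annotated exons of a gene for 69.6% of 12188 genes and for 6 of the 10 members, with overlapping exons counted more than once. The length of the merged exons matched for 12.6%. The members whose distinct exons did not match were H2-K1, Tapbp, Erap1 and Nlrc5. For H2-K1 the length behind the FPKM was 7271 bases, where its distinct exons sum to 10612. Those 7271 bases are 4.49 times its 1619-base coding transcript. The FPKM length was 4.38 times the coding transcript for H2-T23 and 3.98 times for Tap1 but 1.00 for B2m. By deposited FPKM, H2-D1 was above H2-K1 in both libraries, 718 against 319 in the wild-type and 962 against 558 in the knockout library. By CPM per kilobase of the transcript with the longest coding part, H2-K1 was above H2-D1, 1431 against 1062 and 2506 against 1422. The difference between the libraries is the same for a gene on either scale.

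By CPM per kilobase, the order in the wild-type library was B2m (2055), H2-K1 (1431), H2-D1 (1062), H2-Q6 (201), H2-T23 (151), Tapbp (145), Tap1 (106), Tap2 (77.5), Nlrc5 (54.1) and Erap1 (27.1). The knockout library began and ended alike, with B2m (3300.0), H2-K1 (2506), H2-D1 (1422), H2-T23 (402), Tapbp (298), Tap1 (228), Tap2 (171), H2-Q6 (131), Nlrc5 (114) and Erap1 (30.4). H2-Q6 moved from the fourth place to the eighth, and the others kept their order. With 1 library per genotype there is no spread between samples by which to say which neighbours in this order differ. B2m was at 0.722 and 0.740 of the summed level of the 4 H2 members on this scale. By deposited FPKM it was at 1.63 and 1.90 times that sum. Whether the light chain lies above or below the heavy chains thus turns on the length as well. So does the last place of Erap1, whose FPKM length was 4014 bases against 5644 for the transcript used here. By deposited FPKM it was last in the knockout library only. Its wild-type FPKM of 38.0 was above those of H2-T23 (34.5), Nlrc5 (33.1) and Tap1 (26.7).

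**Figure D4:**
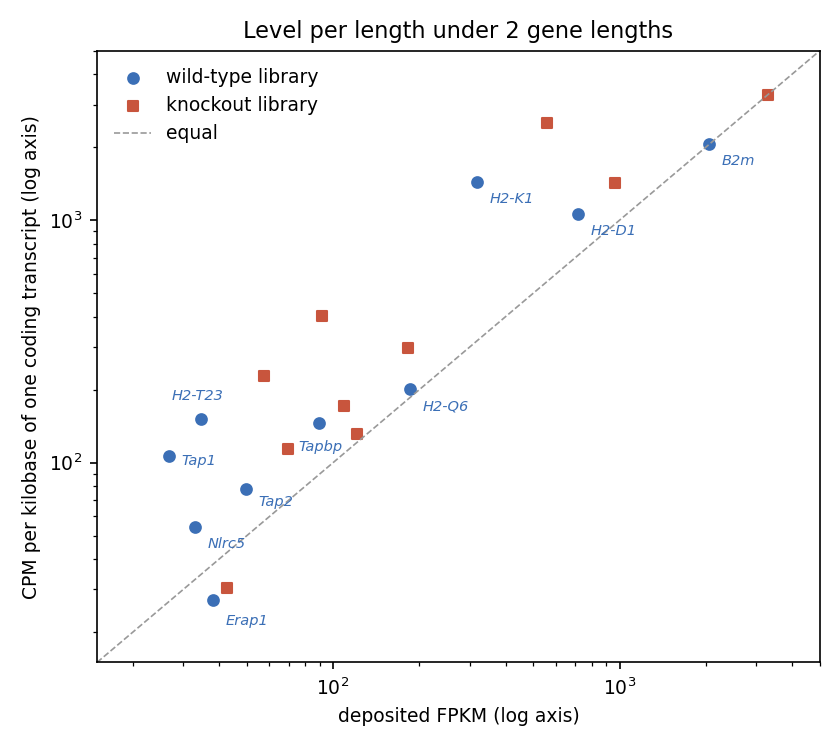
Level of each of the 10 genes per length in the 2 libraries (blue circles, wild-type; red squares, knockout), as deposited FPKM against CPM per kilobase of the transcript with the longest coding part (both axes log); names stand at the wild-type points and the dashed line marks equal values. B2m lies on the line, H2-K1, H2-T23 and Tap1 lie well above it, and Erap1 lies below it.

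The promoters of these genes are where NF-kB, interferon factors and the NLRC5 complex are known to act, so their letters were searched for exact short motifs. RefSeq promoter windows (GRCm38.p6, 250 bases before to 50 after the start) were found for 8 of the 10 genes, all but Tap2 and Nlrc5. The 250 bases before the start follow, 5′ to 3′, for the gene pair that differed in direction and for the light chain gene. Capitals mark matches, on either strand, to a simple NF-kB pattern (GGGA and CC with any 4 bases between them) and to a simple interferon-stimulated response element (GAAA and GAAA with any 2 bases between them).
H2-K1: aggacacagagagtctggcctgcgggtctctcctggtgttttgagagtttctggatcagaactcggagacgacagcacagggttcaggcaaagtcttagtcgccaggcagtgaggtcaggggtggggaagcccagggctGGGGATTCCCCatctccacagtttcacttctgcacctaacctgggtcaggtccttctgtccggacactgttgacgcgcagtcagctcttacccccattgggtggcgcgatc
H2-Q6: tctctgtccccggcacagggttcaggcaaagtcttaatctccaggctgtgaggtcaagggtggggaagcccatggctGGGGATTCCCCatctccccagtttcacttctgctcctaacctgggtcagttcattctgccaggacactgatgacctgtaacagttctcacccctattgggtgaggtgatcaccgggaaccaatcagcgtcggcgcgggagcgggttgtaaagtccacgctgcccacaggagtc
B2m: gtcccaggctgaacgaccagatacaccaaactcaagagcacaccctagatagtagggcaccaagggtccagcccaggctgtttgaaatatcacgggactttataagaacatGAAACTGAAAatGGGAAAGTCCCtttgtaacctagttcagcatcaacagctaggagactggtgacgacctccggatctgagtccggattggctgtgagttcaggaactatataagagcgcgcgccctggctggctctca
These are chr17:34000348-34000597 on the minus strand, chr17:35424600-35424849 on the plus strand and chr2:122147437-122147686 on the plus strand.

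The capitals of H2-K1 and H2-Q6 are the same letters, GGGGATTCCCC, in which matches on both strands overlap. H2-D1 holds them as well, and B2m holds GGGAAAGTCCC beside GAAACTGAAA. The NF-kB pattern was found in 4 of the 8 windows, and in 20.7% of 32851 promoter windows of the same length. The interferon element was found in B2m, H2-T23 and Erap1, and in 3.44% of all windows. In H2-T23 it read TTTCTCTTTC on the opposite strand, starting 124 bases before the start, and in Erap1 it overlapped the start itself. The windows of H2-K1, H2-D1 and H2-Q6 held TTTCACTTCT shortly after the NF-kB letters. These letters are near the interferon element on the opposite strand but not an exact match, so they were not counted. The strict pattern thus does not show that these windows lack an interferon element. The gamma-activated site TTCNNNGAA was found in 0 of the 8 and in 8.30% of all windows. CCAAT was found in 7 of the 8, all but Erap1, and in 37.4% of all windows. TGACG, part of the cyclic AMP response element, was found in H2-K1, H2-D1, B2m and Tap1, and in 20.8% of all windows. H2-Q6 and H2-Q4, which differed in direction, both held CCAAT and the NF-kB pattern. TGACG was found in the H2-Q4 window and not in that of H2-Q6, but its place differed from that in other genes. In H2-K1 (printed window), H2-D1 and B2m it began at -41, -101 and -78 from the start. An opposite-strand CCAAT followed at -16, -76 and -53. In H2-Q4 it began at -73, after that CCAAT at -79, and on the opposite strand at 31. Before that CCAAT, neither H2-Q4 nor H2-Q6 held TGACG. A match is a description of letters, and the absence of one says only that these letters are not in this window.

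Further genes of the pathway were described by list. The immunoproteasome subunits and the PA28 activator, which widen the supply of class I peptides, were higher in 4 of 5 and lower in 0, against 9.58% and 12.3% of all measured genes, with a median log2 ratio of 0.77. Psmb8, whose gene lies between Tap1 and Tap2, went from 234 to 441 CPM and was 1.88-fold higher (1.81 to 1.96). Psme1 was 1.70-fold higher (1.61 to 1.79). Of the 3 constitutive catalytic subunits that these replace, 0 passed the rule as higher or lower, where 9.58% and 12.3% of all measured genes did. All 3 had ratios above 1, with a median log2 ratio of 0.64, so their difference went the same way as that of the immunoproteasome. Psmb6 was at 72.9 and 113.7 CPM, a ratio of 1.56 (1.45 to 1.68), and Psmb5 at 35.5 and 37.9 CPM, a ratio of 1.07 (0.951 to 1.20).

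General folding and quality control genes of the endoplasmic reticulum form a list of 12, of which 1 was higher (Tapbpl) and 1 lower. That is near the shares of all measured genes, 9.58% higher and 12.3% lower, and the median was -0.09. Calr and Pdia3, the calreticulin and ERp57 genes whose proteins sit with tapasin in the loading complex, were at 612 and 503 CPM and at 656 and 562 CPM, ratios of 0.821 (0.797 to 0.845) and 0.857 (0.833 to 0.882). Canx, the calnexin gene, was at 304 and 241 CPM, a ratio of 0.790 (0.757 to 0.825). Pdia6, a disulfide isomerase gene, was 1.67-fold lower (1.56 to 1.79). Peptidases that trim or destroy peptides outside the endoplasmic reticulum were higher in 0 of 10 and lower in 1, the latter near the 12.3% of all measured genes, with a median of -0.26. The lower gene was Rnpep, at 93.0 and 50.8 CPM and 1.83-fold lower (1.68 to 2.00). Thop1, which degrades class I peptides in the cytosol, was at 32.7 and 19.8 CPM, a ratio of 0.606 (0.524 to 0.699).

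The list of 18 transcription factors known to act on class I genes held 4 higher and 1 lower gene, where 9.58% and 12.3% of all measured genes passed, and its median was 0.06. Among the higher genes were Stat2, from 111 to 316 CPM and 2.85-fold higher (2.71 to 3.01), Irf1 at 2.62-fold (2.50 to 2.74) and Irf9 at 1.80-fold (1.70 to 1.90), which encode factors that act in interferon responses. The subunits of the complexes that hold NLRC5 on DNA lay on both sides of 1 and none listed passed the rule. Rfx5, Rfxap and Rfxank had ratios of 0.841 (0.756 to 0.935), 1.09 (0.956 to 1.23) and 1.38 (1.26 to 1.51), and Nfya 0.733 (0.673 to 0.798). The NF-kB genes Rela and Nfkb1 had ratios of 1.12 (1.06 to 1.17) and 0.984 (0.953 to 1.02). Ezh2, a polycomb methyltransferase that can silence class I genes, was 1.74-fold lower (1.62 to 1.88).

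Of 8 genes for interferon receptors, their kinases and interferon gamma, 2 passed as higher and 0 as lower, where 9.58% and 12.3% of all measured genes did, and the median was 0.38. Ifngr2, the signalling chain of the interferon gamma receptor, went from 48.6 to 103 CPM and was 2.12-fold higher (1.95 to 2.31). Jak2, a kinase of that receptor, was 1.63-fold higher (1.57 to 1.69), while Jak1 was at 796 and 713 CPM, a ratio of 0.896 (0.873 to 0.919). Tyk2, a kinase of the type I interferon receptor, was at 176.7 and 119.9 CPM, the lowest ratio of the list at 0.679 (0.640 to 0.720). Ifng itself was low in both libraries, with 173 and 111 counts, a ratio of 0.799 (0.624 to 1.02).

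**Figure D5:**
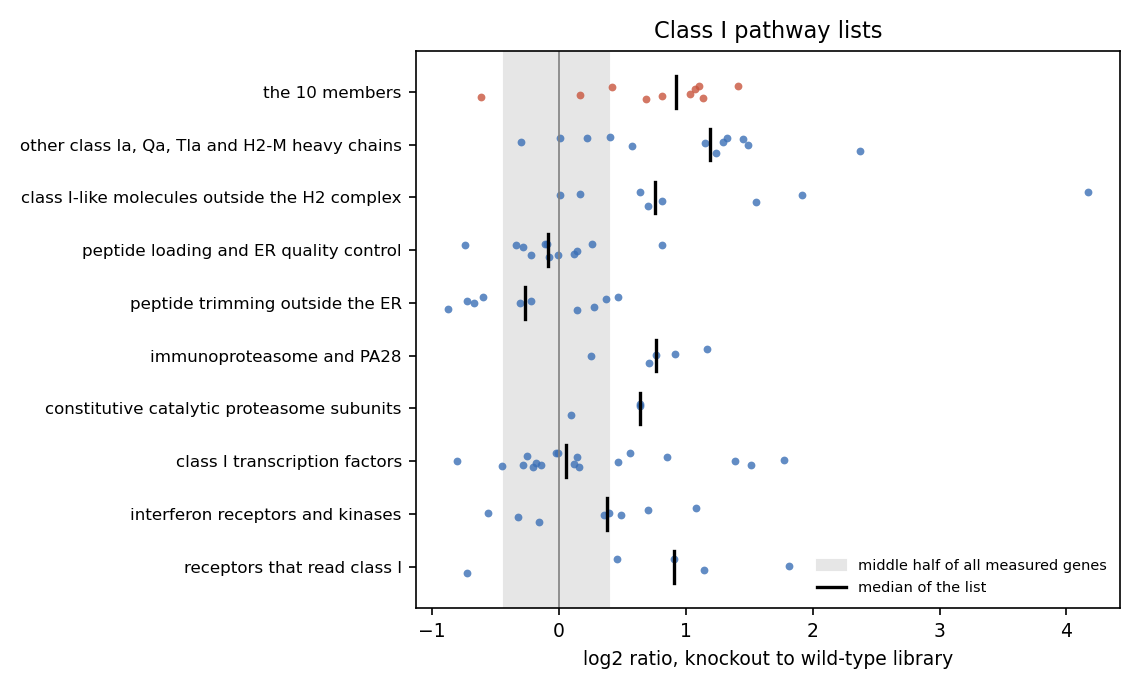
Log2 ratio of the knockout to the wild-type library for the 10 genes (red) and for the genes of 9 related lists that reached 1 CPM in either library (blue), each point 1 gene, with the median of each list as a black bar; grey spans the quartiles of all 13464 measured genes, -0.44 and 0.39. The medians of the 10 genes (0.92), the other heavy chains (1.19) and the immunoproteasome (0.77) lie to the right of the grey band. So do those of the genes listed as receptors that read class I (0.90), the class I-like molecules (0.76) and the constitutive catalytic subunits (0.64). Medians of the folding genes (-0.09), peptidases (-0.26), transcription factors (0.06) and interferon receptors and kinases (0.38) lie inside it.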

How the data were processed

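Gene expression was measured by RNA sequencing of sorted splenic Treg cells, in 1 library per genotype. The TruSeq RNA v2 kit was used, per the labels' protocols. TopHat, HTSeq and the mm10 build are named, per the submitters' processing notes, and versions, annotation and strand setting are not given in the sources here. The deposited tables hold whole-number read counts and the authors' FPKM per gene name, per the file headers. Count divided by FPKM differed between the libraries by the ratio of their totals, 1.246, in all 11771 genes compared, so the FPKM values are the counts over a gene length and the library total.

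Counts were scaled with TMM factors (edgeR 4.0.16, R 4.3.3). Ratios have exact 95% conditional binomial (Clopper-Pearson) intervals, and log2 ratios used a prior count of 0.5, scaled to library size. Intervals cover counting error only, since reads that carry no molecular identifier may be copies of 1 molecule. No test was possible with 1 library per genotype. The rule for a higher or lower gene was an interval wholly beyond 1.5-fold in genes that reached 1 CPM in either library. Python 3.11.15 ran the calculations, which were tested on simulated data, with scipy 1.17.1, numpy 2.4.6 and pandas 2.3.3, and figures were drawn with matplotlib 3.10.9. Gene positions, exon overlap and shared stretches came from GENCODE M21. Levels between genes were first planned on FPKM alone, and CPM per kilobase was added after its gene length was seen.

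The 10 genes, the 9 lists and the 10 marker lists were chosen with earlier results of these data known. Named genes are the 10 members, Psmd14, Foxp3, Il2ra and Ctla4, up to 3 list members at each end by the interval bound nearest to 1 and the most abundant of each list. Other genes named, among them the remaining H2 rows, Lnpep, Ciita, Ifng, Psmb5 and the RFX and NF-kB genes, were chosen after their values were seen. A gene that the rule names is not reported here. Alternatives were other scalings (plain totals, DESeq2 1.42.0 size factors, upper quartile), a 2-fold rule, a 99% interval, no filter, log2(FPKM + 1) and summed or left-out H2 rows.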

Additional observations from a re-analysis of the deposited data

How the results depend on the processing

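Every one of the 10 genes kept its direction and its side of the 1.5-fold rule under plain totals, DESeq2 size factors and upper-quartile factors. The count of 7 higher and 0 lower also held with a 99% interval. Leaving out the 1 CPM filter could not change that count, since all 10 genes were above 100 CPM. Upper-quartile factors moved log2 ratios by 0.04, to 0.85 for H2-K1, 0.46 for H2-D1 and 0.72 for B2m, and to 0.65, 0.82, 0.94 and 0.67 for the sums of the 4 H2 members, all H2 class I rows, the H2-Q rows, and H2-K1 with H2-D1. A 2-fold rule left 4 members higher, and 585 genes higher and 892 lower over all measured genes, where the 1.5-fold rule gave 1290 and 1659. Under it the folding list had 0 higher and 0 lower, the peptidases 0 lower, the transcription factors 0 lower, the interferon receptor list 0 higher, and the immunoproteasome list and the receptors that read class I 1 higher each; a stricter fold can only shorten these counts. The median of the members was 1.06 without the 4 H2 rows and 1.04 with them summed into 1. The sums over the H2-Q rows and over H2-K1 with H2-D1, and the other rules for all genes, were chosen after seeing the data. No paired analysis was possible because there is 1 library per genotype, and for the same reason no library could be left out. Depth limits the lowest H2 rows: H2-M2, at 17 and 16 counts, had an interval from 0.554 to 2.47.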

Other observations

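Class I-like molecules encoded outside the H2 complex were higher in 2 of 8 measured genes and lower in 0, where 9.58% and 12.3% of all measured genes passed, with a median log2 ratio of 0.76. Cd1d2, a class I-like gene, had 52 and 159 counts and was 3.81-fold higher in the knockout library (2.77 to 5.31). Its neighbour in sequence, Cd1d1, which presents lipids to NKT cells, was at 34.5 and 56.2 CPM, a ratio of 1.63 (1.46 to 1.81) that did not pass the rule. Procr, the endothelial protein C receptor gene, had 1 and 22 counts, a ratio of 27.4 (4.43 to 1131). Procr was at 0.0552 and 1.51 CPM, and Raet1d, also on the list, at 0.331 and 1.03 CPM. Both passed the filter through the knockout library only, where they were high. The count of 2 of 8 and the median rest in part on such genes and are a description only. Mr1, which presents vitamin metabolites to MAIT cells, was at 24.7 and 27.8 CPM, a ratio of 1.12 (0.979 to 1.29).

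Genes listed as receptors that read class I were low in both libraries, and 5 of 11 with a row were at 1 CPM or more. Of the 5, 3 were higher and 0 lower by the same rule, against 9.58% and 12.3% of all measured genes. Cd8a, a chain of the class I co-receptor, had 134 and 379 counts and was 3.52-fold higher (2.89 to 4.32), and Cd8b1 had 206 and 310 counts and was 1.87-fold higher (1.57 to 2.25). Lilrb4a, an inhibitory receptor gene of myeloid cells, was 2.21-fold higher (1.75 to 2.80) with 115 and 204 counts. It was on the list, but its product is not an established receptor of class I. Among the 3 higher genes, only Cd8a and Cd8b1 thus encode parts of a class I receptor. The natural killer receptor genes Klrc1 and Klrd1, whose product reads Qa-1, had 5 and 5 counts and 6 and 2 counts. The source of the CD8 counts in these reporter-sorted cells was not tested.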
